A study of Homo sapiens with 6 samples.

Results

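The low-dose response of MDA-MB-231 cells to rebastinib (Reb), a kinase inhibitor, was described from 1 library of cells kept in 1 μM Reb for 48 h and 1 library of cells kept in the vehicle, DMSO, for the same time. MDA-MB-231 is an established human line from a triple-negative breast cancer. Both libraries come from the unmodified line, with no shRNA. They are 2 of the 6 libraries of the study, which also sequenced MDA-MB-231 cells in 5 μM Reb for 48 h and MDA-MB-231 cells stably carrying scramble-shRNA, CDK16-sh1 or CDK16-sh2. Reb was used in the study as an inhibitor of CDK16, an atypical cyclin-dependent kinase. The comparison covers 15730 of the 34157 gene symbols in the count table, kept because they averaged 1 CPM or more over the DMSO and 1 μM libraries. CPM is a gene's count relative to the library total, here after TMM scaling, a correction for library composition. The genes nearest to this limit were RP11-384M15.3, just inside with 32 counts in DMSO and 68 at 1 μM, and HSD11B2, just outside with 28 and 72.

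The genes that differed most between these libraries encode chemokines and cytokines. Chemokines of the CXC family that signal through the receptors CXCR1 and CXCR2 attract neutrophils, and interleukin-1, interleukin-6 and the colony-stimulating factors act on myeloid cells and on the tumour cells themselves. Their genes are classical targets of NF-κB, a family of dimeric transcription factors that is held in the cytoplasm by IκB proteins and released when IκB kinases mark those proteins for destruction. NF-κB also induces its own inhibitors, among them NFKBIA and TNFAIP3, so that the pathway carries its own brake. Many of the same promoters also respond to AP-1, dimers of FOS and JUN family proteins that are made within minutes of growth factor or cytokine signalling. MDA-MB-231 cells are known for basal expression of several of these cytokines in culture, though levels differed between the study's control libraries, as given below.

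The 150 bases before the RefSeq start (GRCh38.p14) of 8 of the genes that fell at 1 μM are shown as examples, chosen after the motif matches were known: 4 chemokine genes of the chromosome 4 cluster, 2 cytokine genes, and the genes of 2 NF-κB inhibitors. Each of the 8 holds a match to at least 1 of the 3 motifs searched. IL1B, CSF2, EGR1 and PLAU, which also fell, have a promoter in the table and held no match to any of them in the window searched. CSF3, C3, RELB, SAA1 and MMP9 had no entry in the table used here. Capitals mark, on either strand, matches to the NF-κB consensus, to the AP-1 motif TGANTCA and to the TATA motif TATAAA.
CXCL1 (chr4:73869243-73869392, plus strand): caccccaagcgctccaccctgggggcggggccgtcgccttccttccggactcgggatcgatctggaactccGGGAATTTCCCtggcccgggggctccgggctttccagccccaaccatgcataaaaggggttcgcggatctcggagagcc
CXCL3 (chr4:74038690-74038839, minus strand): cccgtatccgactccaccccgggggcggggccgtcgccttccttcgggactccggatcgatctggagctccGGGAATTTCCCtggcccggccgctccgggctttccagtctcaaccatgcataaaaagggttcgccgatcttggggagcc
CXCL2 (chr4:74099196-74099345, minus strand): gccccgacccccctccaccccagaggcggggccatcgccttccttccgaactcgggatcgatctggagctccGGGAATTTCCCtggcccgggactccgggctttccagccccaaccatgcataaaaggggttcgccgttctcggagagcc
CXCL8 (chr4:73740419-73740568, plus strand): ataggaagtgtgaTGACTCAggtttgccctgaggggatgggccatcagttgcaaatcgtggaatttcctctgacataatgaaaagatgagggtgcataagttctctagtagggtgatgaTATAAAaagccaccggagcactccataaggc
IL6 (chr7:22727050-22727199, plus strand): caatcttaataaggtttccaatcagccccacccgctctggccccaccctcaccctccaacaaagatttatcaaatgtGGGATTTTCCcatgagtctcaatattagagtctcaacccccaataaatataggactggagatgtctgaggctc
NFKBIA (chr14:35404750-35404899, minus strand): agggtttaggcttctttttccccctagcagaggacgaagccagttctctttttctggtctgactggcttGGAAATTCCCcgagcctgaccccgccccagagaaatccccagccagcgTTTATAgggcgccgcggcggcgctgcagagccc
TNFAIP3 (chr6:137867109-137867258, plus strand): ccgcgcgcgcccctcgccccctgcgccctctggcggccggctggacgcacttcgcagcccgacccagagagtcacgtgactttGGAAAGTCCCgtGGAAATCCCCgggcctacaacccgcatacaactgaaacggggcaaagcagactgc
IL11 (chr19:55370464-55370613, minus strand): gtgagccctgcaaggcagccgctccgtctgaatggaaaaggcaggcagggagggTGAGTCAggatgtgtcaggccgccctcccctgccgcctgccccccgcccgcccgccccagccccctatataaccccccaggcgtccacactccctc
The stretches of CXCL1 and CXCL3 were identical at 86% of 150 positions without gaps, those of CXCL1 and CXCL8 at 29.3%. The NF-κB match of CXCL1 and of CXCL3 began 79 bases before the start on the plus strand, and that of CXCL2 began 78 bases before it. CXCL8 showed an AP-1 match 137 bases and a TATA match 31 bases before the start, and no match to this NF-κB consensus, which says only that these letters are not in the window. The NF-κB match began 73 bases before the start in IL6 and 81 bases before it in NFKBIA, TNFAIP3 held 2 that began 67 and 55 bases before it, and IL11 held an AP-1 match 96 bases before it. In windows of 300 bases, which reach 250 bases before and 50 after the start, 11.3% of the 35116 RefSeq promoters held the NF-κB consensus, and 7.71% the AP-1 motif. Of the measured genes, 10087 had a promoter in the table, and 17.4% of them held the NF-κB consensus and 7.21% the AP-1 motif. The shares were 20.1% and 15.2% among the 164 matched genes that fell at least 2-fold, 32.4% and 26.5% among the 34 that fell at least 4-fold, and 17.2% and 12.9% among the 116 that rose at least 2-fold. A match of letters is a description of the sequence and was not tested for binding.

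The total count was 50303269 in the DMSO library and 49367654 in the 1 μM library. Mitochondrial transcripts took 7.19% and 8.30% of the counts, and the 100 most abundant genes 24.3% and 24.4%. Each condition had 1 library, so no difference has a replicate check, and no test between conditions was run. A gene was called when its log2 fold change (1 μM minus DMSO, prior count of 2) reached 1 in size, which is 2-fold. The limit of 1 CPM is on the mean, so a gene could pass it through 1 library alone. Among others, LTB, TNFSF18, LCN2, CEBPD and SAA2 passed only through DMSO, and ACKR4, TIMP4, MMP16 and LYZ only through 1 μM. Counts of called genes depend in part on this limit. Intervals in parentheses are exact Clopper-Pearson 95% intervals of the counts, which cover counting error only.

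The 1 μM library held 311 genes past 2-fold on the lower side (1.98% of those measured) and 189 on the higher side (1.2%). Every count of called list members below is to be read beside these shares. In some lists the share that fell was near that of all genes, as in lysosome and autophagy genes (2%) and p53 targets and CDK inhibitors (2.94%). It was 4.35% of matrix genes, 4.55% of interferon-stimulated genes and 4.65% of TGF-β, activin and BMP genes. Scaled by library totals in place of TMM the same counts were 266 lower and 246 higher, so lower genes made up 52.0% of the calls in place of 62.2%. The response was uneven in size: 57 genes fell at least 4-fold and 5 rose as much, and 8 fell at least 16-fold. The median log2 fold change of all measured genes was −0.002, the quartiles were −0.24 and 0.22, and 55.9% of genes stayed within 1.2-fold. The whole counting interval lay past 2-fold for 152 of the lower and 54 of the higher genes. Genes at the edge of the call were FLJ37453 (118 and 59 counts, called) and ZFP36L1 (8716 and 4440 counts, just not called) on the lower side, and RP11-1069G10.1 (80 and 165 counts, called) and GPRC5D (121 and 248 counts, just not called) on the higher side. Together the 311 lower genes held 1.65% of all counts in the DMSO library and 0.623% in the 1 μM library.

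**Figure D1:**
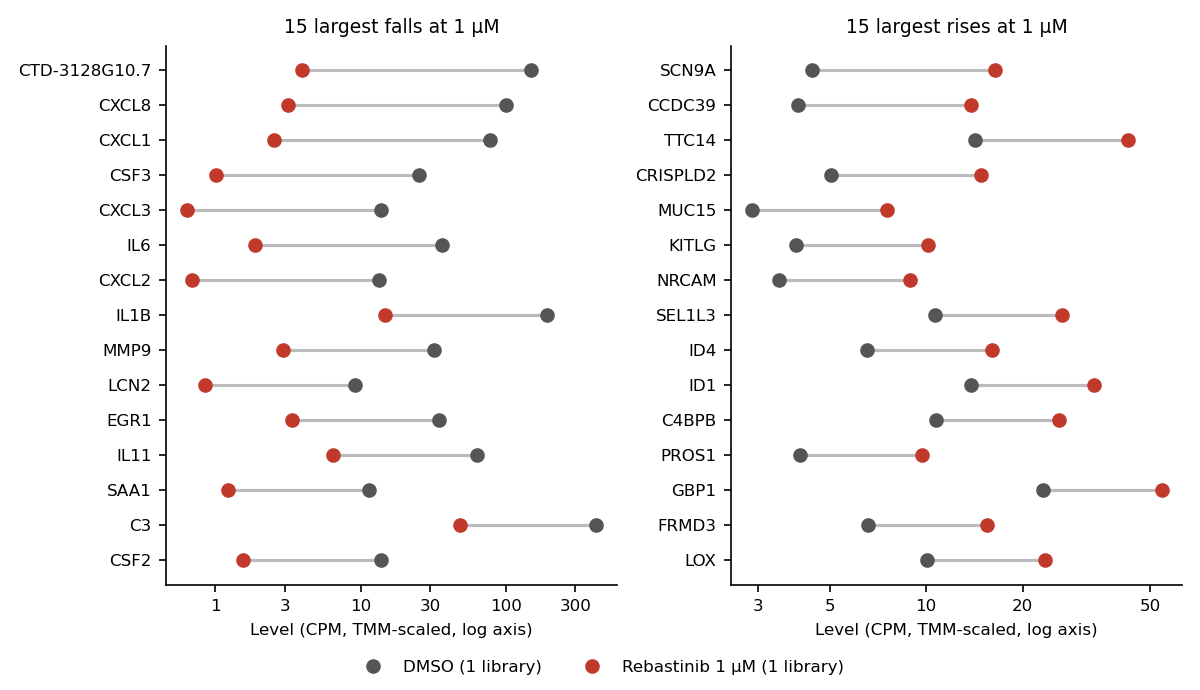
Levels in CPM after TMM scaling (log axis) of the 15 genes with the largest falls (left) and the 15 with the largest rises (right) at 1 μM, of genes that averaged 5 CPM or more. Grey points are the DMSO library, red points the 1 μM library. CXCL8 goes from 101 to 3.18 CPM, and SCN9A from 4.41 to 16.4 CPM.

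CXCL8 and CXCL1, the neutrophil-attracting chemokines also called interleukin-8 and GROα, showed the largest falls of any measured protein-coding gene that averaged 5 CPM or more. CXCL8 (chromosome 4, 73740506 to 73743716) had 4967 counts in DMSO and 160 at 1 μM, or 101 and 3.18 CPM. Its log2 fold change was −4.96 (−5.22 to −4.76). CXCL1 (73869393 to 73871242) had 3853 and 128 counts, or 78.0 and 2.55 CPM, a change of −4.92 (−5.20 to −4.68). Both transcripts remained detected at 1 μM, with 160 and 128 counts. CXCL3 (684 and 32 counts, −4.36) and CXCL2 (662 and 35 counts, −4.19) encode close relatives of CXCL1 and fell almost as far. The intervals of CXCL8 and CXCL1 overlapped each other, and so did those of CXCL3 and CXCL2. Less RNA per cell and fewer cells expressing a gene cannot be told apart in such bulk libraries.

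The remaining chemokine genes were low or unmoved past 2-fold. The table lists 22 chemokine ligand genes, of which 6 were measured, and 4 of those 6 fell and none rose, with a median log2 fold change of −4.28 beside −0.002 for all genes. Without the limit on level the median over the 21 with counts was −0.50. CXCL2 and CXCL3, at 0.696 and 0.636 CPM in the 1 μM library, passed the limit only through the DMSO library. CCL2, the monocyte attractant, was at 2.15 and 1.51 CPM (−0.50), and CCL28, an epithelial chemokine, at 1.34 and 2.41 CPM (0.83). Below the limit of 1 CPM, CXCL5, which lies in the same cluster, had 22 counts in DMSO and 2 at 1 μM, and CCL20 had 12 and 0. Of the receptors, 5 were measured. The decoy-like receptor CCRL2 fell from 9.92 to 4.57 CPM (−1.11), the scavenger ACKR4 rose from 0.769 to 1.97 CPM (1.31), and CXCR2, a receptor of CXCL1 and CXCL8, had 0 and 2 counts.

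The chromosome 4 cluster could be seen against its neighbours. From the start of CXCL8 to the end of CXCL2 it spans 358788 bases. Within 1 Mb on either side the table lists 26 genes, of which 11 were measured. The 4 chemokine genes were the only ones past 2-fold. The 7 others ranged from −0.93 for PARM1 (69 and 36 counts) to 0.47 for AREG, the EGFR ligand amphiregulin (785 and 1111 counts). MTHFD2L, which starts next to CXCL2, had 282 counts in both libraries (−0.03), and EREG, another EGFR ligand, 108 and 142 (0.36).

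**Figure D2:**
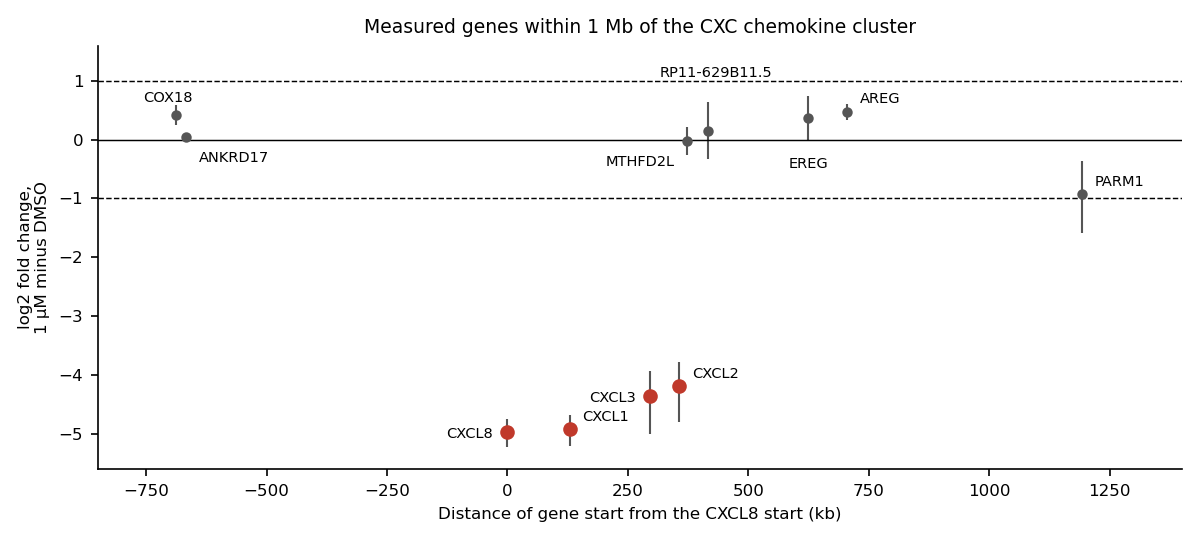
Log2 fold change (1 μM minus DMSO) of the 11 measured genes within 1 Mb of the chromosome 4 chemokine cluster, against the distance of each gene's start from that of CXCL8 in kb. Bars are 95% counting intervals, red points are the 4 genes that fell at least 2-fold, and dashed lines mark 2-fold. The 4 chemokine genes lie between −4.96 and −4.19, the 7 others between −0.93 and 0.47.

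Of the interleukin and colony-stimulating factor genes the table lists 38, of which 19 were measured. Among these 8 fell and none rose, with a median of −0.23. The share that fell was 42.1%, beside 1.98% of all measured genes. Of the 8, IL1A, IL32 and IL23A were below 1 CPM at 1 μM and passed the limit only through the DMSO library. The median depended on which members were kept: it was −3.11 over the 9 that averaged 5 CPM or more, −1.78 over the 11 without overlapping exons, −0.49 over the 28 with counts and −0.10 with the GC trend removed. CSF3, which encodes the granulocyte factor G-CSF, had 1247 counts in DMSO and 51 at 1 μM (−4.58, interval −5.07 to −4.23). IL6, the ligand of the gp130 pathway, had 1800 and 95 (−4.24, interval −4.58 to −3.97). AC073072.5, on the opposite strand, shares 375 bases of exon with IL6 and fell too (−3.65), and as the counting is not stated to use strand, reads of the pair cannot be told apart.

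Both genes of interleukin-1 were among them. IL1B had 9469 and 742 counts, or 192 and 14.8 CPM (−3.70, interval −3.81 to −3.59), and IL1A 297 and 36, or 6.01 and 0.716 CPM. IL11, a gp130 cytokine linked to bone metastasis in breast cancer, had 3139 and 326 counts (−3.29, interval −3.46 to −3.13). CSF2, which encodes GM-CSF, had 678 and 78 (−3.11, interval −3.50 to −2.81). IL32 went from 4.39 to 0.875 CPM (−2.28) and IL23A, a subunit of interleukin-23, from 2.96 to 0.835 CPM (−1.78).

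The other 11 measured members stayed within 2-fold. CSF1, the macrophage factor, was at 73.5 and 54.2 CPM (−0.44), LIF, another gp130 cytokine, at 46.2 and 39.4 CPM (−0.23), CLCF1 at 10.3 and 10.1 CPM (−0.03) and IL18, an interleukin-1 family cytokine, at 40.0 and 67.3 CPM (0.75). EBI3 (−0.23), CTF1 (−0.08), CNTF (0.01), IL7 (0.16), IL12A (0.29), IL16 (0.35) and IL15 (0.63) were all within 2-fold and low. The receptors of these cytokines were not among the called genes: of 24 measured none was past 2-fold in either direction. Their median was 0.14, and they ranged from −0.65 for IL11RA to 0.80 for IL6R.

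Per length, the order of these transcripts differed between the libraries. In the authors' RPKM, counts per gene length and library total, IL1B was at 60.8 in DMSO, CXCL1 at 59.1, C3 at 49.4, CXCL8 at 43.4, IL11 at 23.4, IL6 at 17.3 and CSF2 at 17.1. At 1 μM the order was C3 at 5.86, IL1B at 4.85, IL11 at 2.47, CSF2 at 2.01, CXCL1 at 2.00, CXCL8 at 1.43 and IL6 at 0.930. CSF2 and CXCL1 were neighbours at 1 μM, read on 78 and 128 counts, and do not differ beyond counting error. With 1 library a condition the spread between cultures is unknown for all of these levels.

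In the 5 μM library, whose CPM were scaled with TMM over all 3 libraries of the table, these genes stood at other levels. CXCL8 was at 5.79 CPM, CXCL1 at 1.35, CXCL2 at 10.2, CXCL3 at 9.97, IL1B at 5.96 and CSF3 at 0.808, and IL6 had 356 counts. EGR1 was at 178 CPM there and FOS at 49.7. In the scramble-shRNA library, scaled with the knockdown libraries, IL1B was at 4.43 CPM, IL6 at 2.99, CSF3 at 4.21, MMP9 at 0.885 and C3 at 55.1. CXCL8 was at 26.6 CPM there and CXCL1 at 85.0. Some of these levels are far from those of the DMSO library, on which every fold change here rests, and why was not tested. No fold change was drawn from the 5 μM or the scramble-shRNA library.

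**Figure D3:**
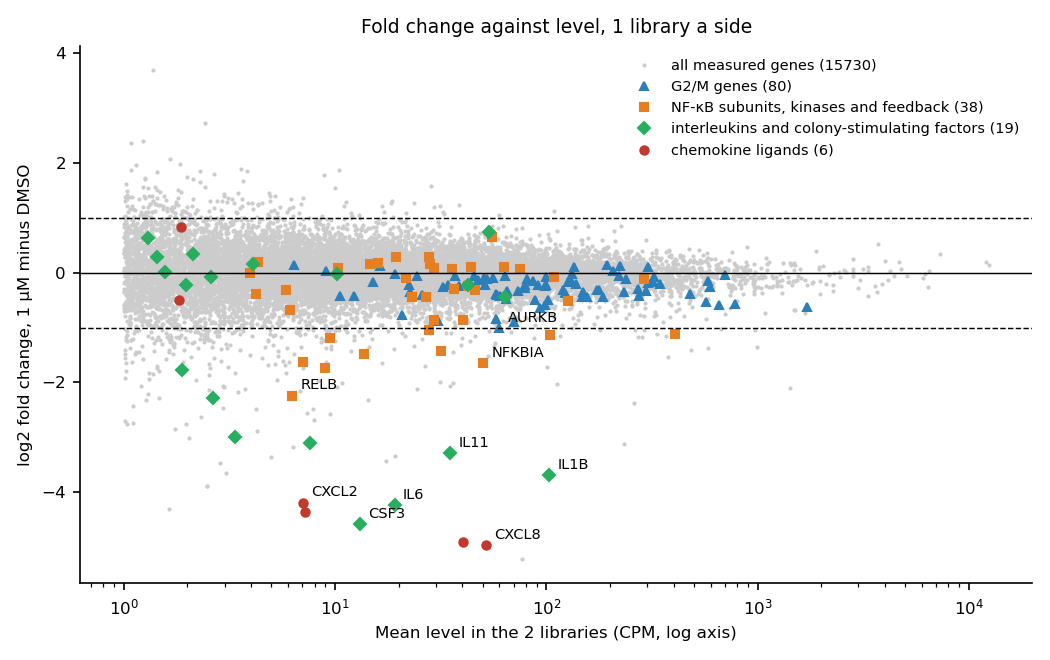
Log2 fold change (1 μM minus DMSO) against the mean CPM of both libraries (log axis) for the 15730 measured genes (grey), with members of 4 gene lists in colour. Dashed lines mark 2-fold. The 4 chemokine genes and 8 cytokine genes that fell lie between −4.96 and −1.78, while the 80 G2/M genes lie between −1.01 and 0.14.

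Of 38 measured genes for NF-κB subunits, kinases and feedback regulators, 10 fell and none rose, with a median of −0.30, and −0.20 with the GC trend removed. The share that fell was 26.3%, beside 1.98% of all measured genes. RELB, the inducible subunit of the non-canonical pathway, had 513 counts in DMSO and 109 at 1 μM (−2.24, interval −2.57 to −1.96). NFKBIA, the gene of IκBα, had 3754 and 1222 (−1.64, interval −1.74 to −1.55), and TNFAIP3, the gene of the deubiquitinase A20, 2281 and 863 (−1.43, interval −1.54 to −1.31).

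Others in this list that fell were IRAK2, a kinase adaptor below interleukin-1 receptors (13.9 to 4.16 CPM, −1.73), BCL3, an IκB-like coactivator (10.6 to 3.42 CPM, −1.62), and ZC3H12A, an RNase that degrades cytokine transcripts (20.1 to 7.18 CPM, −1.48). The last 4, which are named here after their values were seen, were TRAF1 (−1.20), NFKB2 (−1.14), TNIP1 (−1.12) and NFKBIE (−1.04). The 28 others were within 2-fold.

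Of 25 measured genes that NF-κB induces in many cells, 13 fell and none rose, with a median of −1.04, and the median was −0.44 over its members without overlapping exons and −0.45 over those that averaged 5 CPM or more. The share that fell was 52%, beside 1.98% of all measured genes. LCN2, the iron carrier lipocalin-2, went from 9.15 to 0.855 CPM (−3.36, interval −3.91 to −2.97). PLAU, the plasminogen activator urokinase, had 8950 and 2220 counts (−2.04, interval −2.11 to −1.97). The opposite-strand gene C10orf55, which shares 401 bases of exon, fell as well (−1.99), and reads of the pair cannot be told apart. BCL2A1, an anti-apoptotic BCL2 relative, went from 4.82 to 1.43 CPM (−1.72) and PTGS2, the inducible cyclooxygenase, from 8.89 to 2.74 CPM (−1.68). ICAM1 (−1.27) and PTX3 (−1.17), named after their values were seen, fell as well. Some members of this list are also in the chemokine, cytokine and complement lists, so the counts are not independent.

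Of 27 measured TNF superfamily ligands and receptors, 4 fell (14.8%, beside 1.98% of all measured genes) and none rose, with a median of −0.25. LTB, the gene of lymphotoxin β, had 231 counts in DMSO and 14 at 1 μM (−3.89, interval −4.96 to −3.29). TNFSF15 (57.9 to 14.3 CPM, −2.01) and TNFSF18 (2.17 to 0.437 CPM, −2.21) fell 4-fold or more. TNFSF9 was at −1.02 and moved inside 2-fold when library totals were used (−0.97). TNF had 55 counts in DMSO and 3 at 1 μM, which left it below the limit of 1 CPM.

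Complement and acute-phase genes formed the next group. Of 18 measured, 7 fell and none rose, with a median of −0.67, and of −0.34 over the 6 without overlapping exons. The share that fell was 38.9%, beside 1.98% of all measured genes. The list does not hold C4BPB and PROS1, genes of a plasma complex that binds complement, which rose and are given below. C3, the central complement component (chromosome 19, 6677704 to 6730562), was by level the largest of them, with 20689 counts in DMSO and 2409 at 1 μM, or 419 and 47.9 CPM (−3.13, interval −3.19 to −3.07). SAA1, an acute-phase apolipoprotein, went from 566 to 62 counts (−3.18), its near-identical neighbour SAA2 from 7.59 to 0.994 CPM (−2.88), and reads of this pair may be split between them. CFB, complement factor B, went from 17.3 to 4.26 CPM (−2.01) together with XXbac-BPG116M5.17, which shares 234 bases of exon with it (−2.09). C4B, which has a near-identical copy, was at 2.35 and 1.01 CPM (−1.18, and −0.79 in RPKM with 0.1 added).

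The largest fall of all was that of CTD-3128G10.7, a gene symbol on chromosome 19 (6716386 to 6717742, minus strand) that lies between the listed ends of C3 on the same strand. It had 7394 counts in DMSO and 200 at 1 μM, or 150 and 3.98 CPM (−5.22, interval −5.44 to −5.03). Its fall was larger than that of C3, with intervals that do not overlap. Whether its reads belong to a transcript of its own was not tested.

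Transcription factors of the immediate-early class fell in the 1 μM library as well. Of 17 measured AP-1 factors 5 fell and none rose (median −0.43, and −0.76 over the 11 without overlapping exons), and of 23 other immediate-early genes 3 fell and 1 rose (median −0.50). The shares that fell were 29.4% and 13.0%, beside 1.98% of all measured genes. EGR1, a zinc finger factor, had 1722 counts in DMSO and 171 at 1 μM (−3.34, interval −3.59 to −3.13), and FOS 626 and 106 (−2.57, interval −2.90 to −2.29). JUNB went from 29.7 to 13.3 CPM (−1.15), BATF2 from 3.44 to 1.53 CPM (−1.15), MAFF from 92.8 to 43.7 CPM (−1.09) and FOSL2 from 87.8 to 43.6 CPM (−1.01, inside 2-fold at −0.96 with library totals). With the GC trend removed JUNB was at −0.93 and MAFF at −0.89, and BATF2 was at −0.99 in RPKM with 0.1 added. FOSL1, an AP-1 factor that is high in this line, was at 181 and 111 RPKM (−0.76). NR4A2, an orphan nuclear receptor, went from 2.53 to 0.875 CPM (−1.49), and CTGF, a matricellular protein, from 507 to 229 CPM (−1.15), with RP11-69I8.3 on the other strand at −1.34.

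Feedback genes of the ERK pathway followed the same side. Of 28 measured phosphatases, Sproutys and ETS factors, 4 fell and none rose, with a median of −0.31 and 24 of 28 below 0. The share that fell was 14.3%, beside 1.98% of all measured genes. DUSP1, a MAP kinase phosphatase, had 2784 counts in DMSO and 678 at 1 μM (−2.06, interval −2.19 to −1.94). ETV4, an ETS factor, went from 45.5 to 21.3 CPM (−1.10, and −0.91 with the GC trend removed). PHLDA1 (−1.05) and IER3 (−1.04) were close to the limit. With the mean trend removed they stood at −0.97 and −0.99, inside it.

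Of 23 measured genes of gp130 signalling, STAT3 and C/EBP, CEBPD, a transcription factor of the acute-phase response (5.02 to 0.875 CPM, −2.47), and PIM1, a kinase gene induced by STAT3 (13.6 to 5.41 CPM, −1.33), fell, with none higher and a median of −0.09. 

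**Figure D4:**
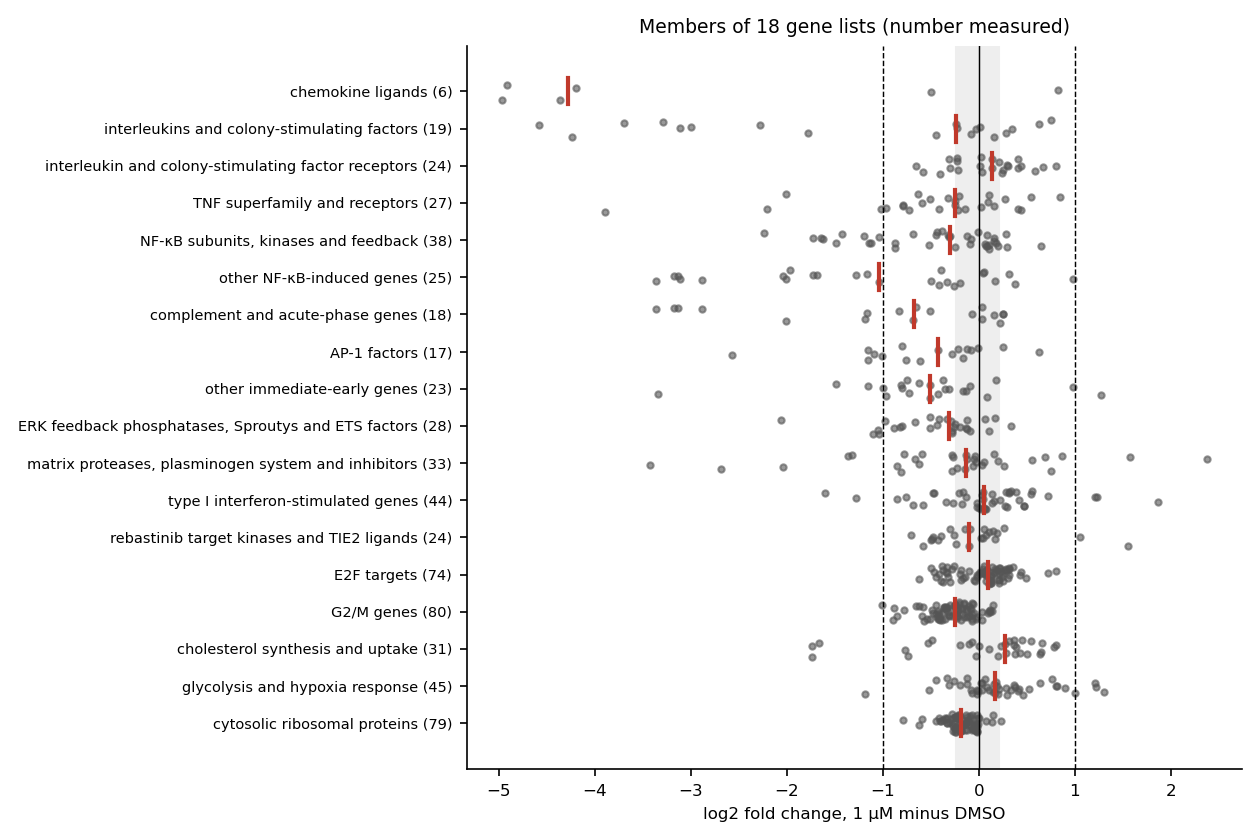
Log2 fold change (1 μM minus DMSO) of the measured members of 18 gene lists, with the number measured in parentheses. Each point is 1 gene, red bars are list medians, the grey band lies between the quartiles of all 15730 genes (−0.24 to 0.22), and dashed lines mark 2-fold. The medians run from −4.28 for chemokine ligands to 0.27 for cholesterol genes.

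Secreted proteases of the matrix fell in part. Of 33 measured proteases, plasminogen-system genes and inhibitors, 5 fell (15.2%, beside 1.98% of all measured genes) and 2 rose, with a median of −0.13. MMP9, the gelatinase, had 1570 counts in DMSO and 147 at 1 μM (−3.43, interval −3.70 to −3.20), and SERPINB2, an inhibitor of urokinase, 682 and 106 (−2.69, interval −3.02 to −2.41), while its neighbour SERPINB10 shares 165 bases of exon and stood at −2.48. MMP1, the interstitial collagenase, had the highest RPKM of the proteases named here, with 715 RPKM in DMSO and 288 at 1 μM (70867 and 28057 counts, −1.36, interval −1.38 to −1.34). MMP3, on the same chromosome arm, was at −1.32, and WTAPP1, which shares exon sequence with MMP1 and MMP3 on the opposite strand, at −1.38. TIMP4, an inhibitor of metalloproteinases, rose from 16 to 93 counts (2.38) and MMP16 from 34 to 107 counts (1.57, and 0.84 in RPKM with 0.1 added), both from levels under 1 CPM.

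Of 46 measured matrix genes TGM2, a cross-linking transglutaminase, fell from 705 to 266 CPM (−1.41), ELN, which encodes elastin, fell from 1.46 to 0.597 CPM (−1.23, and −0.72 in RPKM with 0.1 added), and LOX, a collagen cross-linking oxidase, rose from 10.0 to 23.5 CPM (1.23). The median was −0.11. Integrin and focal adhesion genes had no member past 2-fold among 29, with a range from −0.78 for PTK2B to 0.78 for ITGA10. No keratin of 11 was past it, from −0.55 for KRT7 to 0.20 for KRT8.

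Genes of prostaglandin and lipid mediators moved in both directions. Of 13 measured, 4 fell (30.8%, beside 1.98% of all measured genes) and 1 rose. PTGES, the inducible prostaglandin E synthase, went from 12.1 to 5.05 CPM (−1.26), ALOX5AP, a helper of leukotriene synthesis, from 1.68 to 0.517 CPM (−1.63) and AKR1C1 from 6.78 to 2.88 CPM (−1.22, and −0.98 in RPKM with 0.1 added), beside PTGS2 above. PTGS1, the constitutive cyclooxygenase, rose from 3.75 to 8.49 CPM (1.17).

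The kinases that Reb is known to bind were not lower past 2-fold. Of 24 measured target kinases and TIE2 ligands, CDK16 included, none fell and 2 rose, beside 1.98% and 1.2% of all measured genes, with a median of −0.10. TEK, the gene of the receptor TIE2, was at 2.88 and 3.46 CPM (0.26), ABL1 at 60.6 and 50.5 (−0.26), BCR at 71.6 and 81.5 (0.19), SRC at 31.6 and 23.5 (−0.43) and LYN at 18.4 and 20.3 (0.15). ANGPT1, a ligand of TIE2, rose from 1.21 to 3.66 CPM (1.56) and FLT1, a VEGF receptor, from 1.32 to 2.78 CPM (1.06, though 0.68 in the authors' RPKM with 0.1 added). AXL, a receptor kinase that is high in this line, was at 510 and 312 CPM (−0.71).

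Other members of this list lay between −0.58 and 0.17. Among them were CSF1R (−0.58), PDGFRB (−0.49), DDR2 (−0.49), TIE1 (−0.47), EPHB4 (−0.30), CSK (−0.23), ABL2 (−0.10), FYN (−0.10), MERTK (0.02), LCK (0.04), YES1 (0.06), KDR (0.08), MET (0.10) and DDR1 (0.17). 

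CDK16, the kinase the study targets with Reb, had 4996 counts in DMSO and 4609 at 1 μM, or 101 and 91.7 CPM (−0.14, interval −0.20 to −0.08). Its relatives CDK17 (−0.41), CDK18 (−0.34) and CDK14 (0.36), the cyclins CCNY (0.27) and CCNYL1 (0.13), and the pocket proteins RB1 (−0.09), RBL1 (−0.39) and RBL2 (0.22) were all within 2-fold. PRC1, a spindle midzone protein and CDK16 substrate in the study, had 35274 and 34689 counts (−0.05, interval −0.07 to −0.03).

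Few cell cycle genes were past 2-fold at this dose. Of 74 measured E2F targets none was past 2-fold, with a median of 0.10, and 48 lay above 0. The study reported mitotic spindle, G2/M and E2F target gene sets as lower with Reb, from an enrichment analysis of whole gene sets. That is another measure than a 2-fold limit on each gene, and it was not repeated here. Of 80 measured G2/M genes 72 lay below 0, with a median of −0.24, and 1 was past 2-fold. This was AURKB, a mitotic kinase of the chromosomal passenger complex, at 80.1 and 39.7 CPM (−1.01, and −0.96 with library totals). Among the genes the study followed by PCR after CDK16 knockdown, CDKN1A, the gene of the CDK inhibitor p21, fell at 1 μM Reb from 33.7 to 13.3 CPM (−1.34, interval −1.47 to −1.21). After knockdown, a different treatment, the study reported CDKN1A, CDKN1B and BAX as higher by PCR. At 1 μM Reb CDKN1B (−0.64) and BAX (−0.65) were lower too.

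The other genes the study followed by PCR, after CDK16 knockdown or after Reb, stayed within 2-fold. MKI67 was at 2086 and 1353 CPM (−0.63), BAX at 19.3 and 12.3 CPM (−0.65) and CDKN1B at 28.5 and 18.3 CPM (−0.64). RRM2 (−0.47), MCM7 (−0.45), CDC25C (−0.42), TOP2A (−0.38), CDK2 (−0.37), CCNB1 (−0.31) and CDK1 (−0.10) moved less. CCNE2, a cyclin of the G1/S transition, was the highest of the E2F targets at 0.81 (19.5 and 34.2 CPM). Of 34 measured p53 targets and CDK inhibitors CDKN1A was the only called gene, with a median of −0.02.

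Several other genes of stress and survival fell singly. MT2A, a metallothionein, was the most abundant gene of any list that fell in counts, from 114395 to 26984 (2316 to 537 CPM, −2.11, interval −2.13 to −2.09), and of 28 measured NRF2 targets and metallothioneins AKR1C1 was the only other called gene. BMF, a pro-apoptotic BCL2 relative, went from 4.86 to 1.11 CPM (−2.09), and it fell with BCL2A1 among 27 measured BCL2 family genes. CTSS, a cathepsin, fell from 4.78 to 1.11 CPM (−2.06) as the only called gene of 50 lysosome and autophagy genes. No heat shock gene of 27 and no drug-metabolism or transporter gene of 14 was past 2-fold, with ranges from −0.59 for HSPA1A to 0.46 for DNAJB4 and from −0.32 for AHR to 0.81 for CYP1B1.

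Of 31 measured genes of cholesterol metabolism, 3 fell (9.68%, beside 1.98% of all measured genes) and none rose, with a median of 0.27. The 3 were ABCG1 (3.95 to 1.15 CPM, −1.74), ABCA1 (10.8 to 3.22 CPM, −1.73) and MYLIP (7.90 to 2.47 CPM, −1.66), which export cholesterol or limit its uptake and are known targets of the oxysterol receptor LXR. In a list of LXR targets written after these values were seen, the same 3 of 12 measured genes fell (25%) and none rose (median −0.52). As the list was written with the falls known, its count describes them and does not support them. Fatty acid synthesis genes had no fall and 2 rises of 25, beside 1.2% of all measured genes that rose: ELOVL7 (1.29) and SCD5 (1.06).

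Among growth and differentiation signals, changes were few. Of 27 measured growth factor genes IGF2 fell from 903 to 443 CPM (−1.03, and −0.97 with library totals), with IGF2-AS on the other strand at −1.23, and KITLG, the ligand of the receptor KIT, rose from 3.93 to 10.1 CPM (1.36). Of 43 TGF-β, activin and BMP genes, INHBA, an activin subunit, fell from 242 to 118 CPM (−1.04, and −0.98 with library totals), TGIF1, a repressor of SMAD factors, from 1196 to 580 counts (−1.07, and −0.97 in RPKM with 0.1 added), and NOG, a secreted BMP antagonist, rose from 38.8 to 80.0 CPM (1.04). NUAK2, a kinase (7.05 to 3.16 CPM, −1.15), and CTGF were the called genes of 30 YAP and TAZ targets, of which 24 lay below 0 (median −0.24). Of 17 Wnt targets DKK3 fell (−1.05, and −0.76 in RPKM with 0.1 added) and LBH rose (1.14), and of 34 actomyosin and SRF genes ACTG2 rose from 28 to 78 counts (1.39).

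The rises were smaller and came from lower levels. Where both libraries averaged 5 CPM or more, 41 genes rose and 136 fell. The largest rise there was that of SCN9A, a voltage-gated sodium channel, from 218 to 824 counts (1.88, interval 1.68 to 2.11). CCDC39 (197 and 696 counts, 1.78) and TTC14 (700 and 2142 counts, 1.58) followed, and as their exons share 298 bases on opposite strands their reads cannot be told apart. CRISPLD2, a secreted protein, rose from 5.06 to 14.9 CPM (1.55, interval 1.34 to 1.77).

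ID1 and ID4, dimerization inhibitors of bHLH factors that BMP signalling induces, both rose. ID1 had 680 counts in DMSO and 1676 at 1 μM (1.27, interval 1.15 to 1.41), and ID4 322 and 807 (1.29, interval 1.11 to 1.49). In a list of BMP targets written after these values were seen, 4 of 11 measured genes rose, beside 1.2% of all measured genes, and none fell. The median was 0.45, and 1.01 over the 6 that averaged 5 CPM or more. Besides ID1 and ID4, the genes that rose were NOG and ATOH8, a bHLH factor (18 and 106 counts, 2.41). ATOH8 passed the limit of 1 CPM only through the 1 μM library. As the list was written with the rises known, its count describes them and does not support them.

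Further genes among the 15 largest rises were MUC15, a membrane mucin (2.86 to 7.56 CPM), NRCAM, an adhesion molecule (3.48 to 8.93 CPM), SEL1L3 (10.6 to 26.5 CPM), FRMD3 (6.58 to 15.5 CPM) and GBP1, a guanylate-binding protein induced by interferons (23.1 to 54.1 CPM, 1.23). C4BPB (10.8 to 25.9 CPM, 1.26) and PROS1 (4.05 to 9.72 CPM, 1.26), which encode a chain of C4b-binding protein and protein S, partners in 1 plasma complex, rose as complement C3 and CFB fell. Under 5 CPM, MAP2K6, a kinase above p38, had 30 and 214 counts (2.73), named after its value was seen.

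Interferon-stimulated genes moved both ways. Of 44 measured, 2 fell and 3 rose, beside 1.98% and 1.2% of all measured genes, with a median of 0.06. ISG20 (8.59 to 2.80 CPM, −1.60) and IRF7 (3.00 to 1.21 CPM, −1.28) fell, and EPSTI1 (80 to 302 counts, 1.86), TRIM22 (45 to 109 counts, 1.21, and 0.91 in RPKM with 0.1 added) and GBP1 rose. None of 24 HLA class I and peptide-loading genes was past 2-fold, from −0.75 for HLA-F to 0.66 for ERAP2.

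Glycolysis and hypoxia genes had 1 fall and 4 rises of 45 measured, beside 1.98% and 1.2% of all measured genes, with a median of 0.17. STC1, a secreted glycoprotein, fell from 122 to 53.6 CPM (−1.18). CA9, a carbonic anhydrase (72 to 184 counts, 1.30), LOX, SLC16A1, a lactate transporter (1.21), and PDK1 rose, the last at the limit (0.93 in RPKM with 0.1 added). LOX is also counted among the matrix genes, so these counts overlap. Of 44 stress-response genes PHGDH, the first enzyme of serine synthesis, rose from 67.8 to 149 CPM (1.13, interval 1.07 to 1.19) and NUPR1 from 40 to 90 counts (1.11, and 0.81 in RPKM with 0.1 added).

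Of 79 measured ribosomal protein genes none was past 2-fold, and 74 lay below 0, with a median of −0.19. With library totals the median was −0.13. They ranged from −0.79 for RPL28 to 0.24 for RPL22. Of the 13 mitochondrial mRNAs 11 lay above 0 (median 0.13, and 0.24 with the mean trend removed, from −0.07 for MT-CO3 to 0.52 for MT-ND6). The 76 nuclear-encoded respiratory subunits had a median of 0.07.

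Histone genes were a further group of falls, assembled after the values were seen, so their counts describe the falls and do not support them. Of 4 measured linker histone genes 3 fell (75%, beside 1.98% of all measured genes). H1F0 had 27761 counts in DMSO and 9741 at 1 μM (−1.54), H1FX 3876 and 1380 (−1.51, with H1FX-AS1 on the other strand at −1.45), and HIST1H1C 7907 and 3610 (−1.16). Of 19 measured genes whose symbol begins with HIST, 5 fell (26.3%) and none rose, with a median of −0.39, and of −0.23 over the 6 that averaged 5 CPM or more. HIST1H1C is among these 5 as well as among the linker histones, so the counts of the lists overlap. HIST2H2AA4 (281 and 62 counts, −2.17) and HIST2H2AA3 (646 and 252 counts, −1.38) are near-identical copies whose reads may be split between them.

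The identity of the line was checked against marker genes. In DMSO and at 1 μM the mesenchymal markers VIM (352 and 227 RPKM), MSN (628 and 484), AXL (97.1 and 61.7) and FOSL1 were high, and none of 11 such markers was past 2-fold (median −0.23). Not all of the 11 were high: S100A4 was at 6.21 and 6.98 RPKM. The luminal markers ESR1 (2 and 12 counts), PGR (4 and 16) and TFF1 (0 and 0) were at or near 0. Most of the luminal list was present: 10 of its 16 members were measured, and these summed to 1830 CPM in DMSO and 1964 at 1 μM, of which KRT8 made up 1057 and 1212 CPM. The table lists 17 leukocyte markers, of which 4 were measured. The summed level of all 17 was 362 CPM in DMSO and 235 at 1 μM, of which CD68 was nearly all (358 and 228 CPM). The other markers lay on both sides. LYZ, a measured member of this list that encodes lysozyme, had 8 counts in DMSO and 130 at 1 μM (3.70, interval 2.98 to 5.24), the largest rise of any measured gene, and below the limit PTPRC had 2 and 35 counts, ITGAM 0 and 30, and CD3E 0 and 8. Without the limit on level the list's median was 0.99 over the 16 with counts, a value that depends on the prior count, as several are at 0 in DMSO. CD14 (74 and 43 counts, −0.78) and CSF1R (70 and 47, −0.58) were lower at 1 μM within 2-fold.

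Markers of fibroblasts and endothelium differed in part. CDH5 (122 and 24 counts, −2.28) and PECAM1 (154 and 53 counts, −1.53), endothelial markers, fell, while VWF had 4 and 19 counts and COL1A2 0 in both. The 13 fibroblast and endothelial markers summed to 77.9 CPM in DMSO and 86.9 at 1 μM. Whether the low leukocyte and endothelial transcripts come from the line itself was not tested. The luminal marker AGR2 rose from 46 to 108 counts (1.17).

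The share of called genes changed with the base composition and the level of the genes. The GC content of exons was known for 84.5% of measured genes, 83.0% of those that fell and 80.4% of those that rose. Genes were placed in 5 bins of equal size. In the bin with the lowest GC content 0.790% fell and 1.58% rose, and in the highest bin 3.50% fell and 0.376% rose, with median log2 fold changes of 0.14 and −0.19. Across the 13284 genes, which share both libraries, Spearman's rho between GC content and fold change was −0.36. With this trend removed 229 genes were lower and 148 higher. These are counts over the 13284 genes only, so they cannot be set directly against the 311 and 189 of all 15730 measured genes. In the bin with the lowest level (up to 3.57 CPM) 5.15% fell and 4.13% rose, against 0.826% and 0.0318% in the highest. The part of base composition in any gene's change was not tested, and CXCL8 stayed at −5.16 and CXCL1 at −4.98 with the trend removed.

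**Figure D5:**
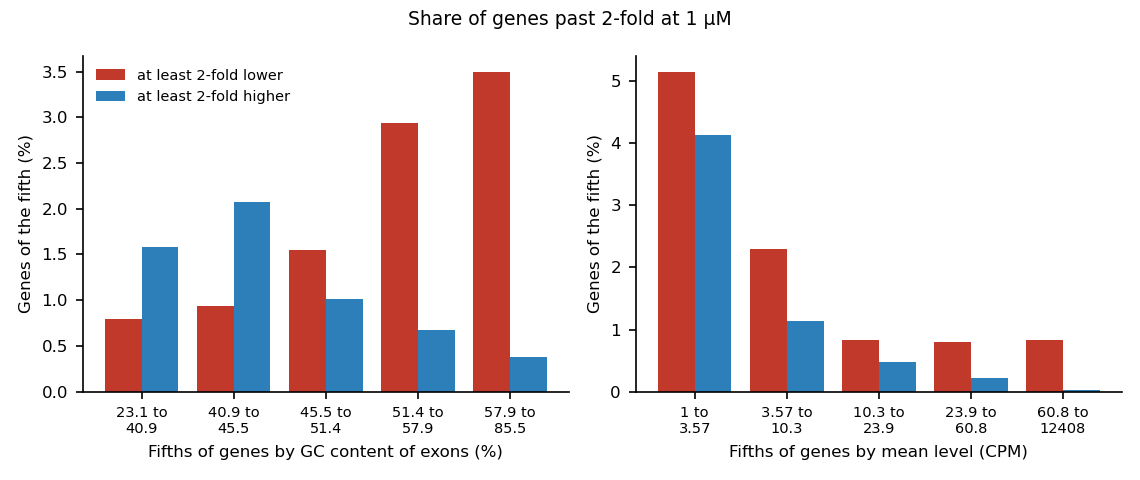
Percent of genes that were at least 2-fold lower (red) or higher (blue) at 1 μM, in 5 equal bins of genes by the GC content of their exons (left, 13284 genes) and by mean level in CPM (right, 15730 genes). The lower share rises from 0.790% to 3.50% with GC content, and both shares are largest in the lowest bin by level.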

How the data were processed

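Messenger RNA of 6 MDA-MB-231 libraries was sequenced by the authors with a stranded mRNA kit, and 2 of the libraries were compared here. Per the submitters' processing notes reads were handled with Trimmomatic, Subread 1.5.1 and featureCounts on GRCh38, and the strand setting of the counting is not given in the sources used here. The deposited tables hold the authors' whole-number read counts per gene symbol without normalization, and the authors' RPKM, the same counts scaled to gene length and library total (100% of values within a relative tolerance of 1e-04). Of 34157 symbols, 27 had been turned into dates and match no list.

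Counts of the DMSO and 1 μM libraries were scaled with TMM in edgeR 4.0.16 (R 4.3.3), and log2 fold changes were taken with a prior count of 2 for genes averaging 1 CPM or more. The code was tested on simulated data. The library totals, 50303269 and 49367654 counts, limit what can be said of genes under a few CPM. With 1 library a condition there is no test, and a fold of at least 2 counts as a call. Other settings were DESeq2 1.42.0 size factors, library totals, TMM over 3 libraries, RPKM with 0.1 added, prior counts of 0.5 and 5, other filters and folds, no mitochondrial transcripts, and trends on level, length and GC content removed.

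Genes were named by a rule: the 15 largest falls and rises that averaged 5 CPM or more, up to 6 members past 2-fold of each of 46 gene lists or else the lowest and highest member, all measured chemokines, cytokines, target kinases and atypical CDKs, the genes the study followed by PCR, and the neighbours of the chemokine cluster. Some exceptions are marked in the text. Others, such as MMP3, CCL20, TNF, CXCR2 and several marker genes, are outside the rule and not marked. Some list members are counted with their lists and not reported here by name. The members and lists were chosen with earlier results of these data known, and the lists of LXR targets, BMP targets and histones after the values were seen. Lists were matched by symbol and older symbols. Promoter sequences and start sites are from RefSeq (GRCh38.p14). Exon overlaps are from the exon positions given with the authors' counts, and GC content is that of the longest GENCODE transcript of each symbol.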

Additional observations from a re-analysis of the deposited data

How the results depend on the processing

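No paired analysis was possible because each condition had 1 library, and for the same reason no replicate could be left out. The counts of 311 lower and 189 higher genes stayed within 1.5 times under the other scalings, units, prior counts and the removal of trends on level and length. With the GC trend removed the counts were 229 and 148, over 13284 genes only, which cannot be set directly against them. They were 3581 and 2442 when low counts were kept, 136 and 41 at 5 CPM or more, and 1150 and 935 at 1.5-fold. At 4-fold they were 57 and 5, and with the whole counting interval past 2-fold 152 and 54. Leaving out genes that share exon sequence with another gene, a setting chosen after seeing the data as was the GC trend, gave 167 and 111, and that alternative tests 7123 genes. Of 108 named genes past 2-fold, 87 kept the call in every alternative that measured them, 21 were inside 2-fold in at least 1, and 0 changed sign. All 4 chemokine genes and 8 cytokine genes that fell kept theirs wherever measured. The 4 chemokine genes ranged from −5.16 (CXCL8) to −3.95 (CXCL2) over these alternatives. Of 50 list medians, 11 changed sign in at least 1 alternative. Depth limits genes under a few CPM.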
